A study of Homo sapiens with 14 samples.

Results

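The genes described here are 10 receptors and receptor ligands best known from natural killer (NK) cells: NCR3, CD48, CD244, CLEC2B, CLEC2D, KLRK1, KLRB1, CD226, CD96 and CRTAM. They were taken by symbol from the 55075 genes listed in each deposited table, and all 10 were found. Their read counts in these same tables were known when they were chosen, so every level and ratio given for them is a description and none was tested.

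RNA was sequenced from a pair of human T cell acute lymphoblastic leukaemia lines, CUTLL1 and CEM, grown in suspension. Every culture was infected with a retrovirus: the treated groups received a short hairpin against JMJD3 (gene KDM6B) or against UTX (gene KDM6A), and the control group a hairpin against Renilla luciferase, an enzyme human cells lack. These groups are called shJMJD3, shUTX and shRenilla. CUTLL1 had 3 shJMJD3, 2 shUTX and 3 shRenilla samples, and CEM had 2 of each. The sources used here do not give how many hairpin sequences were used per gene or how infected cells were selected. JMJD3 and UTX are demethylases of histone H3 lysine 27, whose methylation is laid down by Polycomb, and the series contrasts their knockdown.

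NK cells weigh activating against inhibitory signals from surface receptors that read ligands on other cells, and activated T cells use many of the same receptors. NCR3 (also called NKp30) binds NCR3LG1 (B7-H6) and BAG6. CD48 is a surface protein of the SLAM family that is a ligand of CD244 (2B4) and also binds CD2. CLEC2B (AICL) and CLEC2D (LLT1) are C-type lectin-like ligands of the receptors KLRF1 (NKp80) and KLRB1 (CD161). KLRK1 (NKG2D) recognises the stress ligands MICA, MICB and the ULBP proteins, whereas CD226, CD96 and CRTAM bind nectins and related adhesion molecules.

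Each gene had a single deposited read count for each hairpin in each line. No spread between replicates of a line can be had from them, and the 95% intervals given here cover counting error only. Column totals ran from 70280185 to 258014046 counts. The CUTLL1 shRenilla column came in a pair of versions, a larger one of 258014046 counts beside shJMJD3 and a smaller one of 144394369 beside shUTX. No gene had more counts in the smaller, and what was left after subtracting it from the larger, 113619677 counts, is called the remainder. Levels are given as CPM, the counts of a gene per 1000000 counts of its column. Of the targeted genes, KDM6B was at 206 CPM with CEM shRenilla and 52.2 with shJMJD3. In CUTLL1 KDM6B was at 18.8 in the larger and 21.5 in the smaller control column, 10.9 with shJMJD3 and 28.2 with shUTX. KDM6A was at 136 CPM with CEM shRenilla, 51.5 with shUTX and 86.7 with shJMJD3, and in CUTLL1 at 43.0 with shRenilla and 19.3 with shUTX. All 9 T cell markers examined had counts in every column, with a summed level of 1730 CPM in the CUTLL1 remainder and 2175 to 2982 in the deposited columns. The 7 NK cell markers summed to between 8.26 CPM in the remainder and 34.0 in CUTLL1 shUTX. Most of it was NKG7 in CEM shRenilla, at 29.3 CPM, and NKG7 (14.9) and NCAM1 (13.8) in the smaller CUTLL1 control column. NCR1 was at 0 in every column, and FCGR3A was at 0 in all but CUTLL1 shJMJD3. The 6 B cell markers summed to 83.3 CPM in CEM shRenilla, 47.9 with shJMJD3 and 73.6 with shUTX, mostly CD79A at 74.7 in CEM shRenilla, and to at most 4.14 in CUTLL1. Among them MS4A1 was at 0 in every column.

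In the controls, levels per kilobase of exon were compared between genes. In CEM shRenilla the order was CD96 at 31.7 CPM per kilobase, CLEC2B at 6.96, CD48 at 5.62, CLEC2D at 5.14, CD244 at 4.95, KLRB1 at 1.74, NCR3 at 1.65, CD226 at 0.265, KLRK1 at 0.130 and CRTAM at 0.0323. The neighbours CLEC2D and CD244, and likewise KLRB1 and NCR3, had overlapping counting intervals. In the smaller CUTLL1 control column CD96 again stood first at 41.0, followed by CD244 at 4.95, CD48 at 3.22, CLEC2B at 1.92, NCR3 at 0.949, KLRB1 at 0.670, CLEC2D at 0.571, CD226 at 0.316, KLRK1 at 0.0160 and CRTAM at 0.0155. KLRB1 and CLEC2D overlapped there, as did KLRK1 and CRTAM. CD244 had the same level per kilobase in these control columns, while CLEC2D moved from the fourth place in CEM to the seventh in CUTLL1. KLRK1 had at most 41 counts and CRTAM at most 14 in any column, below the 50 counts set as the minimum for ratios.

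**Figure D1:**
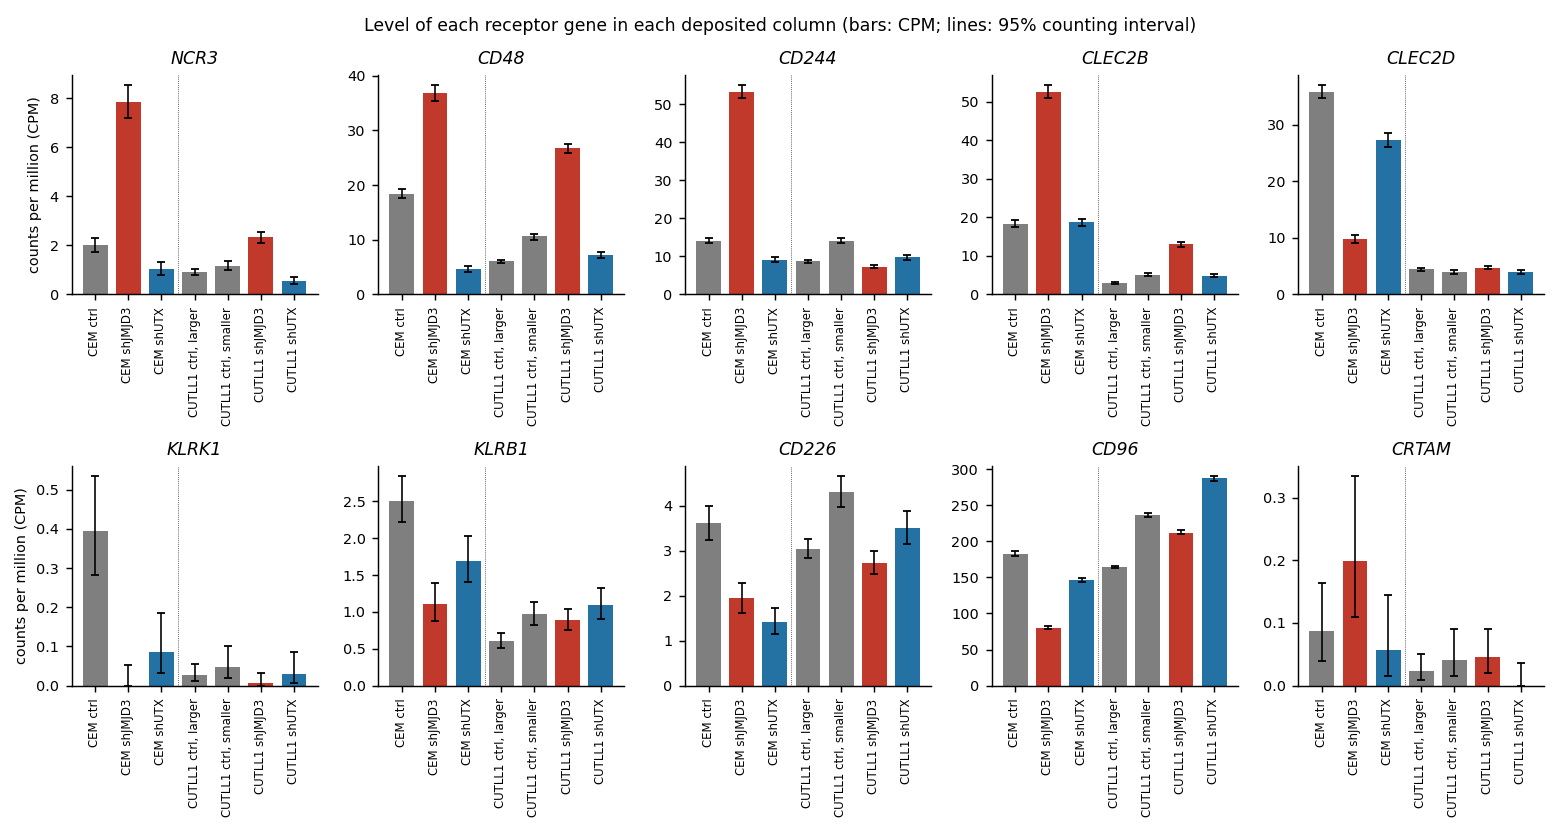
Level of each of the 10 genes in CPM (vertical axes, each with its own scale) in the 7 deposited columns; grey bars are shRenilla, red shJMJD3 and blue shUTX, and the lines are 95% counting intervals. NCR3 and CD48 are highest with shJMJD3 in both lines, and CD244 is highest with shJMJD3 in CEM at 53.2 CPM but not in CUTLL1 at 7.22 CPM.

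NCR3 was higher with shJMJD3 and lower with shUTX than with shRenilla in both lines. In CEM it stood at 2.00 CPM with shRenilla (208 counts), 7.85 with shJMJD3 (552 counts) and 1.03 with shUTX (73 counts). In CUTLL1 it stood at 0.911 CPM in the larger and 1.15 in the smaller control column, 2.32 with shJMJD3 and 0.560 with shUTX. In either line the counting intervals of shJMJD3, the deposited shRenilla columns and shUTX were apart. Log2 ratios here are scaled by TMM, which corrects for differences in RNA composition, so they need not equal the ratio of the CPM values. The log2 ratio of shJMJD3 to shRenilla was 2.18 (95% counting interval 1.96 to 2.43) in CEM and 1.48 (1.25 to 1.73) in CUTLL1. That of shUTX to shRenilla was -0.91 (-1.33 to -0.54) in CEM and -0.93 (-1.41 to -0.51) in CUTLL1. The hairpins therefore lay 3.09 apart in CEM and 2.33 apart in CUTLL1 on the log2 scale, with no control column in either ratio. Over all genes the CUTLL1 comparison of the hairpins was lopsided, with 14.5% 2-fold higher with shJMJD3 and 1.76% lower. For shJMJD3 against the smaller control column these shares were 14.8% and 0.856%. Whether these columns differ in the libraries they pool was not tested. In bulk RNA a higher level in each cell and more cells with the transcript cannot be told apart.

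NCR3 kept its direction in CUTLL1 against each control column, though for shUTX only narrowly against the remainder. The shJMJD3 ratio was 1.40 against the smaller column and 1.79 against the remainder. The shUTX ratio was -0.86 against the larger column and -0.53 (-1.08 to -0.02) against the remainder, or -0.11 there with column totals. In CPM shUTX (0.560) and the remainder (0.607) had overlapping counting intervals. Of the ligands of NCR3, NCR3LG1 stood lower with shJMJD3 in CEM, at 4.45 CPM against 21.5, a log2 ratio of -2.05. In CUTLL1 NCR3LG1 had a ratio of -0.63 against the larger control column, which turned to 0.18 against the smaller and was -1.38 against the remainder. BAG6, a chaperone that can serve as a ligand outside the cell, had ratios of 0.04 and -0.18. The receptor signals through the adaptors CD247 and FCER1G: CD247 had shJMJD3 ratios of 1.24 in CEM and 0.26 in CUTLL1, and FCER1G reached the minimum only in CUTLL1, with a ratio of 1.61.

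CD48 followed the same order of hairpins, with shJMJD3 highest in both lines. In CEM it stood at 18.4 CPM with shRenilla, 36.8 with shJMJD3 and 4.57 with shUTX, and the 3 counting intervals were apart. In CUTLL1 it stood at 6.02 CPM in the larger and 10.6 in the smaller control column, at 26.7 with shJMJD3 and at 7.19 with shUTX. CUTLL1 shUTX thus lay below its own paired control and above the other control column. The log2 ratio of shJMJD3 to shRenilla was 1.22 (1.13 to 1.31) in CEM and 2.29 (2.21 to 2.37) in CUTLL1. That of shUTX was -1.98 (-2.16 to -1.81) in CEM and -0.46 (-0.59 to -0.34) in CUTLL1. Between the hairpins the ratio was 3.19 in CEM and 2.20 in CUTLL1. Scaling to column totals put the CEM shJMJD3 ratio at 1.00, just under the 2-fold line.

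The CUTLL1 values of CD48 depended on the control column, and the shUTX direction with them. The remainder held 30 counts of CD48, or 0.264 CPM, against 10.6 CPM in the smaller column, a log2 ratio of -4.74 (-5.37 to -4.28). Against the smaller column the shJMJD3 ratio was 1.74, and against the remainder 6.47. The shUTX ratio was 0.08 (-0.05 to 0.21) against the larger column and 4.25 against the remainder. In the same split the summed T cell markers stood at 2982 CPM in the smaller column and 1730 in the remainder, and NK cell markers at 29.1 and 8.26; their part in the CD48 values was not tested. CD48 shares 976 exon bases with an antisense gene, AL121985.1, and the sources used here do not say whether the counting used strand.

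CD244, the receptor of CD48, stood apart by line. In CEM it stood at 14.1 CPM with shRenilla, 53.2 with shJMJD3 and 9.11 with shUTX. In CUTLL1 it stood at 8.70 and 14.1 in the control columns, 7.22 with shJMJD3 and 9.70 with shUTX. The CEM shJMJD3 level was the only one above 14.1 CPM in the 7 columns. Its log2 ratio of shJMJD3 to shRenilla was 2.13 (2.04 to 2.22) in CEM and -0.13 (-0.23 to -0.03) in CUTLL1, or -0.57 against the smaller control column and 1.90 against the remainder. The shUTX ratio was -0.61 in CEM and -0.46 in CUTLL1, but -0.02 against the larger control column. CD2, the other partner of CD48, had shJMJD3 ratios of 0.07 and 0.71. SH2D1A (SAP), the adaptor through which CD244 signals, had ratios of 1.03 in CEM and 0.16 in CUTLL1.

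CD48 and CD244 lie in the SLAM gene cluster on chromosome 1, and RefSeq holds a promoter for each, shown here because ligand and receptor were higher together in CEM. The 250 bases before the start of CD48 are chr1:160711823-160712072 and those of CD244 chr1:160862888-160863137 (GRCh38.p14, minus strand, written 5′ to 3′ along the gene). Capitals mark matches to a motif of 8 searched on both strands: TGTGGT for RUNX factors, CCGGAAG for ETS factors, AGATAA for GATA factors, CAGGTG for E-box factors, TGANTCA for AP-1, TTCNNNGAA for STAT factors, GGGNNTTCC for NF-kB and GTGGGAA for RBPJ.
CD48: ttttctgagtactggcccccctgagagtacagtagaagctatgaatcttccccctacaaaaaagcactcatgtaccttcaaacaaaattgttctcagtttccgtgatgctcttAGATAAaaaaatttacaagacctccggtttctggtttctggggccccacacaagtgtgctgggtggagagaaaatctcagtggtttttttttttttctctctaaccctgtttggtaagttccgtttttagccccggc
CD244: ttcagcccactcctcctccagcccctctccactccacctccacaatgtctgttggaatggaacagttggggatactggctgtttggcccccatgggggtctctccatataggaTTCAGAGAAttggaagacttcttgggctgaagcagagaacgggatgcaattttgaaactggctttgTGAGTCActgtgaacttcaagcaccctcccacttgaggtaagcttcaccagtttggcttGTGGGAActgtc

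The CD48 window holds a GATA match that begins 137 bases before the start. The CD244 window holds a STAT match 137, an AP-1 match 71 and an RBPJ match 12 bases before it. No match overlaps another. Of 35116 RefSeq promoters, 9.17% hold the GATA letters in the same 250 bases, 6.57% the STAT, 6.57% the AP-1 and 5.43% the RBPJ letters. The windows share no motif of the 8. They hold few CpG dinucleotides, 4 for CD48 and 1 for CD244 against a median of 11 over all promoters. Promoters were matched for 6 of the 10 genes; NCR3, CLEC2B, KLRK1 and CRTAM had none in the table.

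CLEC2B, the ligand of KLRF1, was higher with shJMJD3 in both lines and close to control with shUTX. In CEM it stood at 18.4 CPM with shRenilla, 52.7 with shJMJD3 and 18.7 with shUTX. In CUTLL1 it stood at 2.89 and 5.08 in the larger and smaller control columns, 13.0 with shJMJD3 and 4.83 with shUTX. The shJMJD3 ratio was 1.74 (1.66 to 1.82) in CEM and 2.30 (2.19 to 2.43) in CUTLL1, or 1.75 against the smaller control column. The shUTX ratio was 0.05 (-0.05 to 0.15) in CEM and 0.02 (-0.15 to 0.18) in CUTLL1, the latter turning to -0.07 with column totals and to -0.03 with DESeq2 size factors. Against the larger control column the CUTLL1 shUTX ratio of CLEC2B was 0.57. Its split between the parts of the CUTLL1 control resembled that of CD48, with 12 counts in the remainder and a log2 ratio to the smaller column of -4.91. The receptor KLRF1 had at most 13 counts in any column. CLEC2B shares 479 exon bases with the antisense gene AC091814.1.

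CLEC2D and its receptor KLRB1, neighbours on chromosome 12, were lower with shJMJD3 in CEM and not in CUTLL1. CLEC2D stood at 35.8 CPM in CEM with shRenilla, 9.79 with shJMJD3 and 27.3 with shUTX. In CUTLL1 its 4 columns lay between 3.90 and 4.73 CPM. Its shJMJD3 ratio was -1.65 (-1.77 to -1.53) in CEM and 0.23 (0.10 to 0.36) in CUTLL1, or 0.65 against the smaller column and -0.21 against the remainder. CLEC2D was the member that differed most between the lines' controls, with a log2 ratio of the smaller CUTLL1 column to CEM shRenilla of -3.07. CLEC2D, CLEC2B and KLRB1 were 2-fold lower in that comparison and none of the 8 measured members was higher, beside 26.5% and 17.5% of all genes. KLRB1 stood at 2.51 CPM in CEM with shRenilla, 1.11 with shJMJD3 and 1.69 with shUTX, and in CUTLL1 between 0.608 and 1.10. Its shJMJD3 ratio was -0.95 (-1.35 to -0.59) in CEM and 0.68 (0.36 to 1.02) in CUTLL1, where the smaller column gave 0.27 (-0.06 to 0.62). CLEC2D shares 844 exon bases with a processed pseudogene on its own strand, AC007068.1, so its reads may be split.

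KLRK1 was near the limit of detection. Its counts in CEM were 41 with shRenilla, 0 with shJMJD3 and 6 with shUTX, or 0.394 CPM with shRenilla against a floor of 0.0427 (3 counts) with shJMJD3. In CUTLL1 it had at most 7 counts. Since 1900 of its exon bases belong also to the readthrough gene KLRC4-KLRK1 on the same strand, these counts are uncertain. Its adaptor HCST (DAP10) was well detected, with shJMJD3 ratios of -0.56 and 0.31. Among its ligands, MICA stood at 0.306 CPM in the larger CUTLL1 control column and 2.63 with shJMJD3, a log2 ratio of 3.20, and its CEM ratio was 0.37. The MICA ratio was 2.67 against the smaller column and 6.30 against the remainder. ULBP2 had ratios of -1.98 in CEM and 1.16 in CUTLL1, the latter 1.80 against the smaller column and 0.53, short of 2-fold, against the remainder. MICB had 0.77 and -0.01, and ULBP1 -1.08 and 0.12.

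CD226 and CD96 compete for the poliovirus receptor PVR, CD226 as an activating receptor. CD226 stood at 3.61 CPM in CEM with shRenilla, 1.94 with shJMJD3 and 1.41 with shUTX, so that both hairpins lay below control. Its ratios there were -0.67 (-0.97 to -0.39) and -1.31 (-1.66 to -1.01). In CUTLL1 it stood between 2.73 and 4.31 CPM, with ratios of -0.02 (-0.19 to 0.15) for shJMJD3 and -0.21 (-0.40 to -0.02) for shUTX. The first turned to 0.01 with DESeq2 size factors and the second to 0.03 against the larger control column. CD96 was the most abundant member, at 183 CPM in CEM with shRenilla, 80.4 with shJMJD3 and 146 with shUTX. In CUTLL1 CD96 stood at 165 and 236 CPM in the control columns, 212 with shJMJD3 and 287 with shUTX. Its shJMJD3 ratio was -0.97 (-1.01 to -0.92) in CEM and 0.51 (0.49 to 0.53) in CUTLL1, and column totals put the CEM value at -1.18, past the 2-fold line. The CUTLL1 shJMJD3 ratio of CD96 was 0.25 against the smaller control column, or -0.15 there with column totals, and 1.40 against the remainder. Its shUTX ratio was -0.30 in CEM and 0.37 in CUTLL1.

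The promoter of CD96 is shown for contrast with CD48 and CD244, as the matched window with most CpG dinucleotides (6). It is chr3:111541947-111542196 (RefSeq, GRCh38.p14, plus strand), with matches to the same motifs in capitals.
CD96: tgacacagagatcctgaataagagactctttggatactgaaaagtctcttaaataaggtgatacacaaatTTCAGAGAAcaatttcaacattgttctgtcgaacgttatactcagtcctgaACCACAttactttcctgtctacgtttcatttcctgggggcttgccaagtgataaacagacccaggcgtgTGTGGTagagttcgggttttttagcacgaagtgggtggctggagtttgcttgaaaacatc

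It holds RUNX matches 129 and 60 bases before the start, the first on the opposite strand, and a STAT match 180 bases before it. The RUNX letters occur in 11.0% of all promoters. A match describes letters in the window and not a bound site.

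Of the nectins, the adhesion molecules to which ligands of CD226 and CD96 belong, PVRL1 alone was 2-fold higher with shJMJD3 in both lines. PVRL1 (nectin 1) stood at 84.9 CPM in CEM shJMJD3 against 18.4, a log2 ratio of 2.42, and in CUTLL1 at 1.30 against 0.554, a ratio of 1.36. PVRL2 had ratios of 2.66 in CEM and 0.81 in CUTLL1, and PVRL3 1.03 and 0.35. Against the smaller CUTLL1 control column these were 1.97 for PVRL1, 0.43 for PVRL2 and 0.02 for PVRL3. Against the remainder they were 0.74, 2.32 and 1.6, so that PVRL1 was no longer 2-fold higher in CUTLL1. PVR itself reached the minimum only in CEM, with a ratio of -0.40. TIGIT, the inhibitory receptor of the same ligands, had at most 25 counts. CRTAM had 9, 14 and 4 counts in CEM with shRenilla, shJMJD3 and shUTX and at most 8 in CUTLL1, and its ligand CADM1 had at most 1 count in any column.

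**Figure D2:**
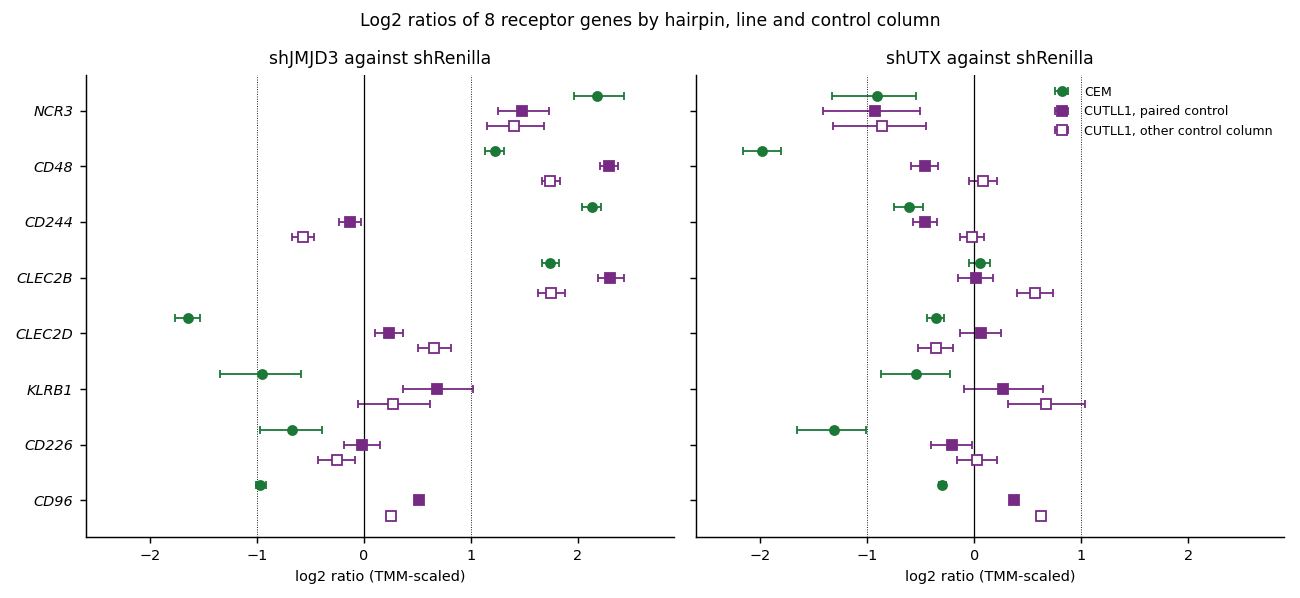
Log2 ratio to shRenilla (horizontal axes, TMM-scaled) of the 8 genes with at least 50 counts, for shJMJD3 on the left and shUTX on the right; circles are CEM, filled squares CUTLL1 against its paired control column, open squares CUTLL1 against the other one, lines are 95% counting intervals and dotted lines mark 2-fold. NCR3, CD48 and CLEC2B lie right of the 2-fold line for shJMJD3 in both lines, and CD244 lies at 2.13 in CEM and at -0.13 in CUTLL1.

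Counted together, 8 of the 10 genes reached the minimum of 50 counts in either column of each comparison. With shJMJD3 against shRenilla in CEM, 4 were at least 2-fold higher (NCR3, CD48, CD244, CLEC2B) and 1 at least 2-fold lower (CLEC2D). With column totals as the scale the split was 3 higher and 3 lower, as CD48 was just short of 2-fold and KLRB1 (-1.16) and CD96 (-1.18) passed it. Over all genes at the minimum, 10.4% were 2-fold higher and 15.2% lower in that comparison. In CUTLL1 3 were higher (NCR3, CD48, CLEC2B) and none lower, beside 3.68% and 2.33% of all genes. With shUTX against shRenilla none was 2-fold higher and 2 were lower in CEM (CD48, CD226), beside 0.750% and 1.24%. In CUTLL1 none of the 8 was 2-fold apart with shUTX, beside 0.823% of all genes higher and 0.190% lower. Between shJMJD3 and shUTX, 4 were higher and 1 lower in CEM, beside 10.9% and 13.8%, and 3 were higher in CUTLL1, beside 14.5% and 1.76%. Against the smaller CUTLL1 column 3 were higher with shJMJD3, beside 14.8% of all genes higher and 0.856% lower. Against the larger none was 2-fold apart with shUTX, beside 1.29% and 13.0%. Against the remainder 6 were higher with shJMJD3, beside 9.77% and 10.5%, and 5 with shUTX, beside 10.7% and 17.6%. These members were chosen from the same columns, so the counts stand as a description.

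The members' median log2 ratio for shJMJD3 against shRenilla was 0.27 in CEM, where that of all genes was -0.11, and 0.59 in CUTLL1, where that of all genes was -0.01. For shUTX it was -0.57 in CEM beside -0.01, and -0.10 in CUTLL1 beside 0.04. With column totals as the scale, every shJMJD3 ratio to shRenilla moved by -0.22 in CEM and -0.14 in CUTLL1. The shift was -0.19 and -0.31 for the ratios between shJMJD3 and shUTX.

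NCR3, CD48 and CLEC2B were at least 2-fold higher with shJMJD3 in both lines (CD48 not so in CEM with column totals), as were 0.737% of the 15882 genes compared there (117 genes), while 0.485% were 2-fold lower. The same 3 members were 2-fold higher with shJMJD3 than with shUTX in both lines, beside 1.26% of 15113 genes higher and 0.615% lower. None was 2-fold apart from control with shUTX in both lines, beside 0.0462% of 15153 genes higher and 0.0132% lower. Of 14674 genes at the minimum in all 4 comparisons with control, 3.95% stood above control with shJMJD3 and below it with shUTX in both lines at any size, NCR3 and CD48 among them. With the smaller CUTLL1 control column for both hairpins the share was 4.16%, again with NCR3 and CD48. The CUTLL1 shUTX ratio of CD48 was 0.08 against the larger column and 4.25 against the remainder, so CD48 left the pattern with either. At 1.5-fold or more in all 4 comparisons with the paired control columns the pattern held for 1 gene, NCR3, or 0.00681%. Against the remainder the CUTLL1 shUTX ratio of NCR3 was -0.53, or 1.45-fold, and NCR3 no longer met that rule. This count was made after the members' values were seen. Both hairpins share the control column in CEM, and in CUTLL1 the larger control column contains the smaller in every gene, so the shJMJD3 and shUTX ratios of a line are not independent.

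Genes were ranked by their largest difference from NCR3 over the 4 log2 ratios to shRenilla, among 12057 protein-coding genes. Among the nearest 4 were ICOSLG (a costimulatory ligand) at 0.81, ITGAE (the integrin CD103) at 0.85 and S1PR5 (a sphingosine 1-phosphate receptor) at 0.86. Of these 3, ICOSLG came closest to the shUTX pattern in CEM, with a ratio of -0.99, whereas ITGAE had -0.06 and S1PR5 -0.05 there. CD48 was at rank 38 with 1.06. For CD48 the nearest were TTC9 at 1.02, LST1 at 1.03, ICOSLG at 1.05 and SYNGR1 at 1.06, followed by NCR3 at rank 5. A largest difference of about 1 means that even the nearest genes lay about 2-fold from CD48 in at least 1 of the 4 comparisons.

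Genes beside NCR3 and CD48 were also examined, after their values were seen. NCR3 lies on chromosome 6 between LST1 and AIF1, with LTB and TNF beyond. LST1, a leukocyte gene that shares 15 exon bases with NCR3 on the opposite strand, had shJMJD3 ratios of 0.72 in CEM and 1.47 in CUTLL1 and shUTX ratios of -0.95 and -0.28. LTB, a lymphotoxin subunit, had shJMJD3 ratios of 0.59 and 1.78, whereas TNF had 0.56 in CEM and -0.68 in CUTLL1. AIF1 had 1.58 in CEM and 0.08 in CUTLL1, and on the far side PRRC2A had -0.09 and -0.28. Next to CD48, SLAMF1 had 1 count with CEM shJMJD3 against 70 with shRenilla, a ratio of -4.09 whose counting interval runs from -10.67 to -2.82, and a ratio of 3.02 in CUTLL1. SLAMF6 had 0.37 and 2.48, CD84 0.51 and 0.70, and LY9 -1.64 and 0.81. The CD48 and CD244 neighbourhood therefore held ratios of both signs in CEM, and in CUTLL1 the neighbours SLAMF6 and SLAMF1 were 2-fold higher like CD48.

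**Figure D3:**
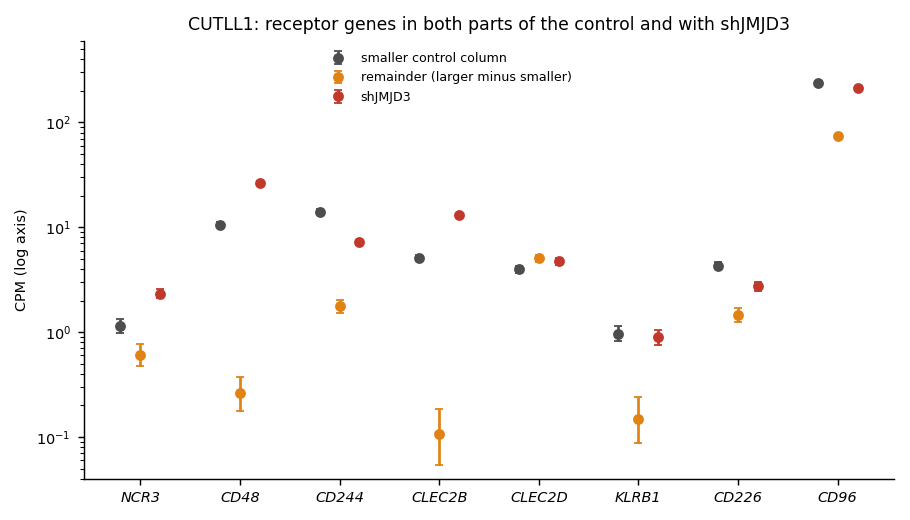
Level in CPM (vertical log axis) of the 8 genes with at least 50 counts in the smaller CUTLL1 control column (grey), the remainder of the larger column (orange) and CUTLL1 shJMJD3 (red), with 95% counting intervals. CD48 stands at 10.6 in the smaller column and 0.264 in the remainder, CLEC2B at 5.08 and 0.106, and CLEC2D at 3.98 and 5.05.

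In the split of the CUTLL1 control column, 6 of the 8 genes were at least 2-fold lower in the remainder and none higher, where 7.55% of all genes were lower and 16.5% higher. CD48 and CLEC2B were lowest, CD244 had a ratio of -2.47, KLRB1 -2.09, CD96 -1.15 and CD226 -1.03. NCR3 had -0.39 (-0.83 to 0.01) and CLEC2D 0.86 (0.70 to 1.04). SLAMF1 and SLAMF6 had 0 counts in the remainder, where the floor of 3 counts is 0.0264 CPM. The sources used here do not say which samples each control column holds.

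Of 6 wider lists around the members (ligands and partners, adaptors, other SLAM receptors, other NK receptors, cytotoxic effectors and lineage transcription factors), 72 genes were tested across lines. The line served as the replicate in edgeR's quasi-likelihood test, with 2 residual degrees of freedom. None of the 72 passed a Benjamini-Hochberg adjusted p of 0.05 in any of the 3 comparisons, and neither did any of 24003 genes (0%) for shJMJD3. At an unadjusted p under 0.05 there were 11 of the 72 for shJMJD3 against shRenilla, 1 for shUTX against shRenilla and 8 between the hairpins. Those were 15.3%, 1.39% and 11.1% of the 72, beside 3.90%, 0.169% and 8.10% of all genes tested. The lists were chosen with earlier results of these data known, so these shares stand as a description only. DESeq2 called PVRL1 and TNFSF10 for shJMJD3 against shRenilla, PVRL1 between the hairpins and none for shUTX. Over all genes it called 108 of 22548, 283 of 21759 and 3 of 39896 in the same order. TNFSF10 (TRAIL, a death ligand) had shJMJD3 ratios of 1.40 in CEM and 1.61 in CUTLL1. PVRL1 and TNFSF10 were the only genes of these lists 2-fold higher with shJMJD3 in both lines against the paired control columns. PVRL1 was not so against the remainder, and no list gene was 2-fold lower in both lines. Of all genes compared, 0.737% were 2-fold higher in both lines and 0.485% lower.

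The list counts that follow stand beside 10.4% of all genes 2-fold higher and 15.2% lower with shJMJD3 in CEM, and 3.68% and 2.33% in CUTLL1. Among 20 ligands and partners, 4 of 14 at the minimum were 2-fold higher and 3 lower with shJMJD3 in CEM (median log2 ratio 0.05), and 4 of 14 were higher and none lower in CUTLL1 (median 0.46). Among the 15 adaptors, 2 of 12 were higher (CD247 and SH2D1A) and 1 lower (ZAP70, a kinase that binds the CD247 chain, at -1.23) in CEM, with a median of 0.49. In CUTLL1 1 of 13 adaptors was higher and none lower (median 0.07). The 7 other SLAM receptors had none of 5 higher and 2 lower in CEM (median -0.51), and 2 of 5 higher in CUTLL1 (median 0.81). Against the remainder 4 of 4 SLAM receptors were higher with CUTLL1 shJMJD3 (median 5.2), beside 9.77% of all genes higher and 10.5% lower. The 16 cytotoxic effectors had 2 of 10 higher and 2 lower in CEM (median 0.38). In CUTLL1 2 of 9 effectors were higher and none lower (median 0.55), and 5 of 9 were higher against the remainder. In CEM PRF1 (perforin) stood at 0.128 CPM against 6.96, a ratio of -5.33, CST7 (cystatin F) at -3.90 and CTSW (cathepsin W) at 2.13. The same genes had 1.83, -0.41 and 0.55 in CUTLL1. Of 26 other NK receptors only 6 reached the minimum in CEM and 5 in CUTLL1, with CD160 at -2.39 and LAIR1 at -1.20 in CEM. KIR3DL2 stood at 120 CPM and KIR3DL1 at 55.1 in CEM shRenilla, and both had 0 counts in the CUTLL1 columns. Of the 14 transcription factors, 3 of 12 were higher (IKZF2 1.21, NFIL3 1.11, RUNX3 1.07) and 3 lower (ZBTB16 -1.87, IKZF3 -1.52, EOMES -1.46) in CEM. None of 11 was 2-fold apart in CUTLL1. With shUTX, these 6 lists held 1 gene 2-fold higher in CEM (PVRL2, 1.13) and 1 lower (NKG7, a granule protein, -1.03), beside 0.750% and 1.24% of all genes. None was 2-fold apart in CUTLL1 against the paired column, beside 0.823% and 0.190%. Against the larger column 1 ligand or partner and 1 effector were higher and 1 ligand or partner lower, beside 1.29% and 13.0%. Against the remainder 4 effectors, 2 other NK receptors, 2 ligands or partners and 1 SLAM receptor were higher. There 1 ligand or partner and 1 adaptor were lower, beside 10.7% of all genes higher and 17.6% lower.

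Of the marker lists, the myeloid one held the widest gap. ITGAM, an integrin chain also carried by NK cells, stood at 6.33 CPM in CEM shJMJD3 against 0.125 in CEM shRenilla, a log2 ratio of 5.63. NCR3, CD48, CD244 and CLEC2B were also highest in CEM shJMJD3. In CUTLL1 ITGAM stood at 3.01 CPM with shJMJD3 and at 1.47 and 1.90 in the larger and smaller control columns. Its ratio to the larger was 1.17. All 6 myeloid markers summed to 6.47 CPM in CEM shJMJD3, 0.355 in CEM shRenilla, 0.649 in CEM shUTX and 1.73 to 3.44 in CUTLL1. ITGAM made up most of the CEM shJMJD3 sum. CD14, CSF1R and MPO had 2 counts each there, or 0.0285 CPM, under the floor of 3 counts. Their CEM shRenilla levels were 0.0960, 0.0672 and 0.0576 CPM, from 10, 7 and 6 counts. LYZ went the other way, with 3 counts in CEM shJMJD3 and 1 in CEM shRenilla. No direction is read from such low counts. CD33 had 1 count in CEM shJMJD3 and 0 in all other columns. The part of other cells in the receptor levels was not tested.

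**Figure D4:**
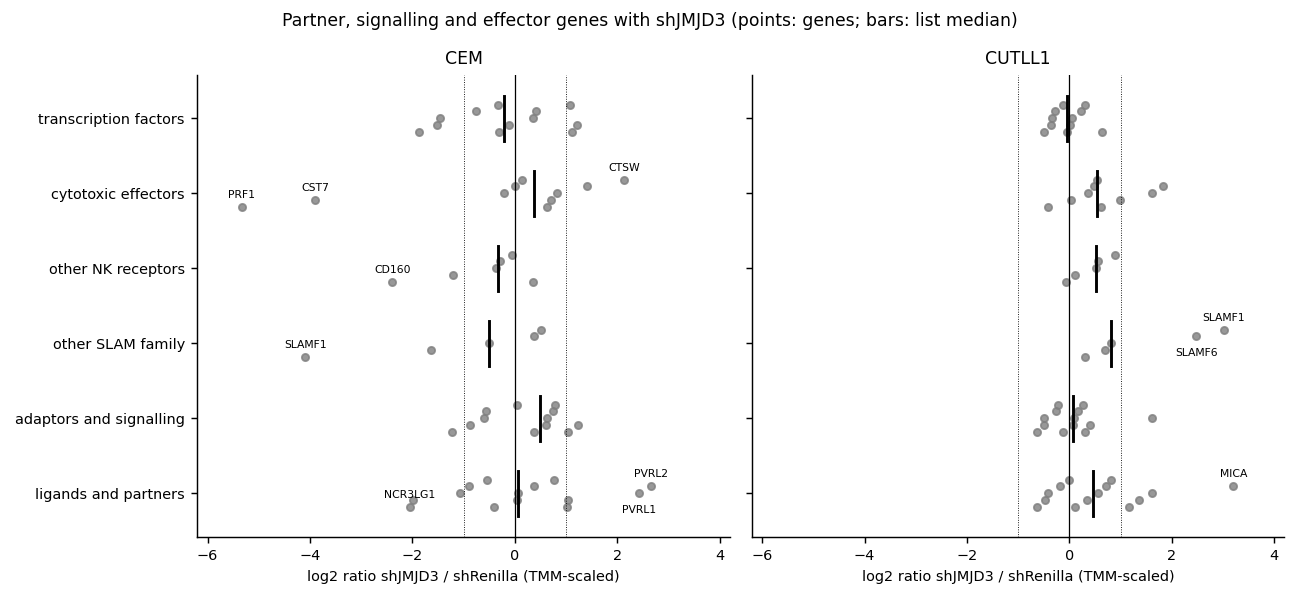
Log2 ratio of shJMJD3 to shRenilla (horizontal axes, TMM-scaled) in CEM and CUTLL1 of the genes with at least 50 counts in 6 lists around the receptors; each point is a gene, the black bar is the list's median and dotted lines mark 2-fold. Points spread from PRF1 at -5.33 to PVRL2 at 2.66 in CEM, and SLAMF1 at -4.09 in CEM lies at 3.02 in CUTLL1.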

How the data were processed

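RNA sequencing of 14 samples (2 lines, 3 hairpins) was analysed from 6 tables that the authors deposited, each with a raw read count per gene for a pair of hairpins in 1 line. Per the labels' protocols, poly-A or ribosome-depleted RNA went into strand-marking dUTP libraries read as 50-base single reads. Per the submitters' processing notes, CASAVA, TopHat and hg19 were used, without versions; per the labels, the tables come from DEGseq. The sources used here do not give the RNA selection of each sample, the program and annotation used for counting, or whether it used strand. The deposited fold values, p-values and q-values were not used. The deposited columns carry 1 count per hairpin and line, and the libraries behind each are not stated, so each was treated as the authors' pooled count. Missing values were read as 0.

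Levels are CPM, counts per 1000000 of the column total, with exact Clopper-Pearson 95% intervals, and per kilobase by the union of exons of GENCODE release 29, which matched 48932 of 55075 genes and all 10 members. Log2 ratios used TMM over the 7 deposited columns and a prior count of 2, among genes with at least 50 counts in either column, with 2-fold as the line for counts. Reads are not independent molecules, so intervals and the floor of 3 counts cover counting error only. Each hairpin was set against the shRenilla column deposited with it.

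Across lines, edgeR 4.0.16 (R 4.3.3) was run as a quasi-likelihood test with filterByExpr, TMM and the line as a block on all genes, at a Benjamini-Hochberg adjusted p of 0.05, and DESeq2 1.42.0 as an alternative. Its p-values measure the spread between 2 lines. For shJMJD3 against shUTX the larger control column entered the fit. The scripts were tested on simulated data. Alternatives were scaling (column totals, DESeq2 size factors), the prior count (0.5), the level minimum (10 or none), the low-count filter and the CUTLL1 control column.

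The members and gene lists were chosen with earlier results of these data known. Outside the members, the text names up to 4 genes of each list that were 2-fold apart the same way in both lines, ligands beside their receptors, and the 4 genes nearest to NCR3 and to CD48, of which 1 is not reported here; other list genes, neighbours and motifs were chosen after their values were seen. Promoter sequences come from RefSeq (GRCh38.p14), another build than that of the counts.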

Additional observations from a re-analysis of the deposited data

Results flagged for a closer look

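In the members' ratios listed here the lines lay on opposite sides of 0, with both counting intervals clear of 0. These intervals cover counting error only. The share of all genes that meet this rule was not counted, so it is not read as a trait of the members. The difference between lines was not tested, since each line has 1 value per hairpin. With shJMJD3 against shRenilla, CD244 stood at 2.13 in CEM and -0.13 in CUTLL1, CLEC2D at -1.65 and 0.23, KLRB1 at -0.95 and 0.68, and CD96 at -0.97 and 0.51 (log2). With shUTX against shRenilla, CD96 stood at -0.30 in CEM and 0.37 in CUTLL1. Between shJMJD3 and shUTX CLEC2D stood at -1.29 in CEM and 0.59 in CUTLL1, the latter 0.28 with column totals. That ratio has no control column in it, but in CUTLL1 14.5% of all genes were 2-fold higher there and 1.76% lower. CLEC2D was also higher in the remainder than in the smaller control column, at 0.86 (0.70 to 1.04). Whether the hairpin columns differ in the libraries they pool was not tested. Against the remainder of the CUTLL1 control the sign of CD244 (1.90) and of CLEC2D (-0.21) was that of CEM. Against the smaller column the shJMJD3 ratio of CD96 was 0.25, or -0.15 with column totals, and that of KLRB1 0.27 (-0.06 to 0.62).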

How the results depend on the processing

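The edgeR test called 0 genes in each of the 3 comparisons across lines (936, 39 and 1945 genes at an unadjusted p under 0.05 for shJMJD3 and shUTX against shRenilla and for shJMJD3 against shUTX), where DESeq2 called 108, 3 and 283. For shJMJD3 against shUTX, no low-count filter gave 55 calls and column totals gave 6. The count of members 2-fold apart for CUTLL1 shJMJD3 against shRenilla was 3 and became 6 against the remainder. For CUTLL1 shUTX it was 0 and became 1 with column totals (NCR3), 1 with no level minimum (CRTAM) and 5 against the remainder. Of 48 log2 ratios of members, column totals moved 22 past their counting interval and changed the sign of 3, and DESeq2 size factors moved 9 and changed the sign of 3. The other CUTLL1 control column moved 14 of 16 and changed the sign of 3, and the remainder 15 and 7. The prior count and the level minimum moved none of the 48. No paired analysis was possible because the deposited columns carry no replicate numbers, and leaving out single replicates could not be done for the same reason. Depth limits KLRK1 and CRTAM, which had too few counts for a ratio in any comparison. The cause of these shifts was not tested.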

Other observations

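Other neighbours of the members, looked at after their values were seen, gave further values. Beside CD96, all 3 genes that follow it in RefSeq order were lower with shJMJD3 in CEM: ZBED2, a zinc finger gene within CD96, had a log2 ratio of -1.97, PLCXD2 -1.28 and PHLDB2 -1.59. In CUTLL1 they had -0.22, 0.17 and 0.72. PVRL3, the gene just before CD96, went the other way in CEM, with 1.03, and had 0.35 in CUTLL1. Of all genes, 15.2% were 2-fold lower and 10.4% higher with shJMJD3 in CEM. Beside CRTAM, UBASH3B (a phosphatase that dampens T cell receptor signalling) had 1.42 in CEM and 0.42 in CUTLL1. Beside CD226, CCDC102B had -1.37 and -0.48.

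T cell surface genes outside the members gave further values with shJMJD3. In CEM the coreceptor CD8A had a log2 ratio of -2.48 and CD4 1.92, while the thymocyte protein CD1A had -2.01 and CD5 1.27. In CUTLL1 CD8A had -0.74, CD4 0.13, CD1A 0.85 and CD5 0.00. Of the 9 T cell markers, 2 were 2-fold higher and 2 lower in CEM, and none was 2-fold apart in CUTLL1, beside 10.4% and 15.2% of all genes in CEM and 3.68% and 2.33% in CUTLL1.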
